A study of Arabidopsis thaliana with 6 samples.

Results

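The genes described here are those whose difference between 2 Arabidopsis thaliana accessions, Col-0 and Can-0, was not the same in the floral bud as in the seedling. For each gene the Can-0 minus Col-0 difference was taken in bud and in seedling on the log2(RPKM + 1) scale, and the seedling difference was subtracted from the bud difference. RPKM is the read count scaled to the length of the gene model and to the reads mapped in the library, and the result is called the interaction. Of 28775 features, 12697 reached 5 RPKM in at least 1 bud and 1 seedling library and were kept. An interaction of 2 or more in size was found for 104 of them, 0.819% of the genes kept: 38 were positive (0.299%) and 66 negative (0.52%). A positive value means that Can-0 stood higher against Col-0 in bud than in seedling, and a negative value the converse.

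Col-0 is the accession of the reference genome, and Can-0 was collected on the Canary Islands. They are among the parents of the MAGIC lines, which were inbred from a cross of many accessions. Seedlings of each accession were taken at 11 days and floral buds at stage 12. Both grew on soil at 20 C, in long days with 16 hours of light and 8 hours of darkness. Roots, which the rule did not use, came from plates at 10 days under the same light. Each accession and organ had 1 library, so no interaction has a replicate check, no p-value is given, and every value below is a description of these libraries. The seedling libraries shared sequencing run 33 and the root libraries run 40, while the Col-0 bud came from run 36 and the Can-0 bud from run 35, so that in the bud accession and run cannot be told apart. The time of day of each harvest is not given in the sources used here, so that organ, accession and hour of harvest cannot be told apart either.

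As background, many plant transcripts cycle over the day under a clock of mutually repressing transcription factors. Genes such as CCA1 peak near dawn and repress genes of the evening, among them TOC1 and the evening complex of ELF3, ELF4 and LUX, through a short promoter sequence called the evening element. Cold-regulated (COR) genes protect cells against freezing and drying. They answer to factors that bind the dehydration-responsive core and are also gated by the clock.

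Depth was alike. The step between small RPKM values put the mapped reads per library at 21.8 to 22.9, in units of 1e6. The labels were checked against marker genes. The 7 floral organ markers summed to 1075 RPKM in the Col-0 bud and 1315 in the Can-0 bud, and to 4.26 or less in the seedlings. The 4 pollen markers summed to 1270 and 1374 RPKM in bud, and the 4 tapetum markers were at or near 0 in every library. The 5 leaf markers summed to 23542 RPKM in the Col-0 seedling and 18727 in the Can-0 seedling, and to 6486 and 5269 in the buds. They were thus lower in Can-0 in both organs, and their part in the results was not tested. Root markers were at or near 0 in seedlings and buds. In bulk tissue, fewer cells of a type and less RNA per cell cannot be told apart.

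Over the genes kept the interaction had a median of -0.03 and an SD over genes of 0.50, and 95% of genes lay within 1 of 0. Of 162 genes that differed by at least 2 in bud and 234 in seedling, 116 did so in both with the same sign, which is 71.6% of the first and 49.6% of the second set. Of those, 92 had an interaction under 1. Only 1 gene, COR27, differed by at least 2 in both organs with unlike signs. The 104 genes were read in classes. In 8 the accessions differed by at least 2 in bud and under 1 in seedling (5 positive, 3 negative), in 33 by at least 2 in seedling and under 1 in bud (11 and 22), in 19 by at least 1 in both organs with unlike signs (7 and 12), in 7 by at least 1 in both with like signs (5 and 2), and 37 met none of these (10 and 27). The seedling difference was the larger in 25 of 38 positive and 50 of 66 negative genes. Just inside the threshold lay AT1G13650 at 2.01 and AT4G32340 at -2.0, and just outside it ELIP1 at 1.95 and NRT1.7 at -1.99. With 5 RPKM added in place of 1, 29 of the positive and 33 of the negative genes came under 2 in size, and 27 of the 104 moved by over 1.5 times. An annotated gene on the other strand overlaps 19 of the 104, among them FKF1, LUX, LNK2, AT3G12320, COL2, BBX8, COR15B, GSTF12, IGMT5, BT5, RbcX1, AT5G03350 and AT5G23240. The use of strand in counting is not given in the sources used here, so reads of such partners cannot be told apart.

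**Figure D1:**
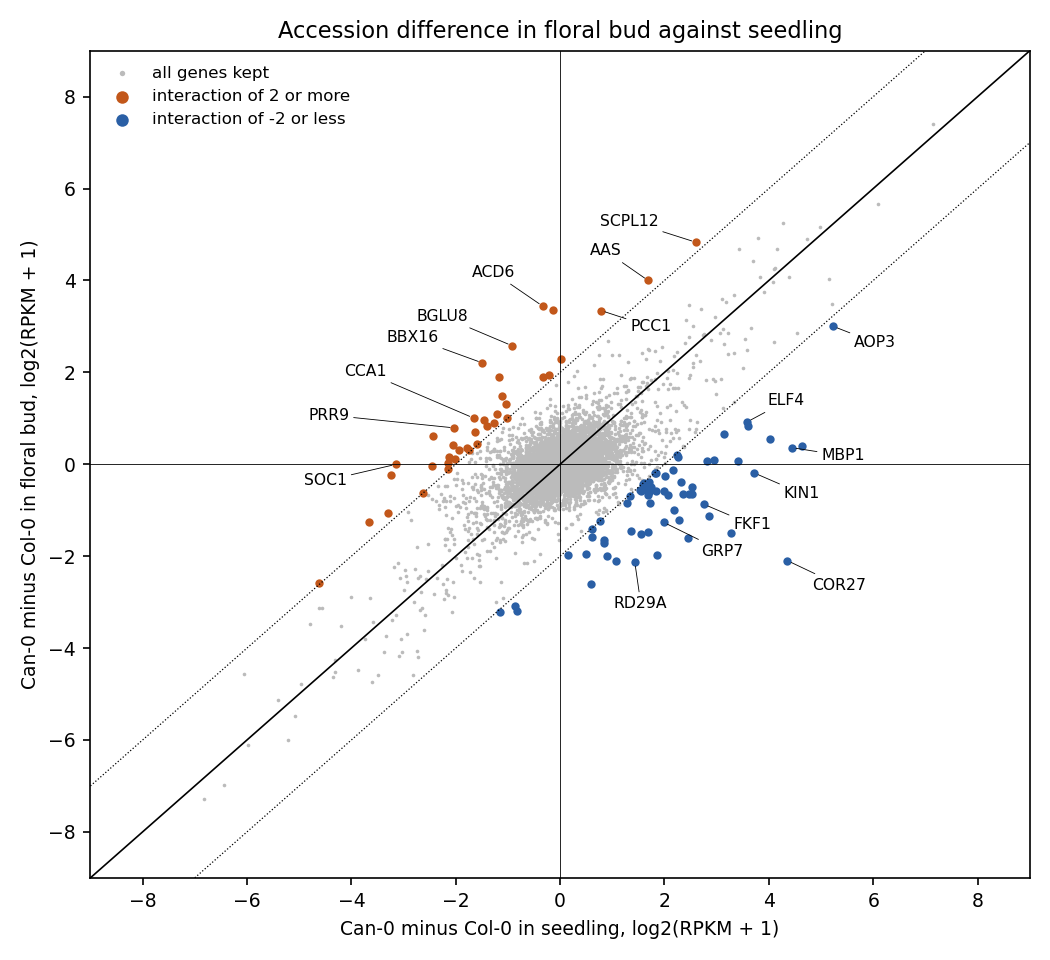
Can-0 minus Col-0 difference on log2(RPKM + 1) in floral bud (vertical axis) against seedling (horizontal axis), 1 point per gene. Grey points are the 12697 genes kept, orange the 38 with an interaction of 2 or more and blue the 66 with -2 or less. The solid line marks equal differences and the dotted lines an interaction of 2 in size; COR27 lies farthest from the solid line.

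The negative genes were mostly higher in Can-0 in seedling (63 of 66) and lower in Can-0 in bud (54 of 66). The positive genes were mostly lower in Can-0 in seedling (34 of 38) and higher in Can-0 in bud (30 of 38). Seen within an accession, 58 of the 66 negative genes (87.9%) were lower in seedling than in bud in Col-0, and 18 (27.3%) in Can-0. Of the 38 positive genes 10 were lower in seedling than bud in Col-0 and 30 in Can-0. Over all genes kept the shares were 65.9% and 63.2%. These signs follow in part from how the genes were chosen.

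COR27 (AT5G42900), a small protein that links cold responses to the clock, had the interaction of largest size. It stood at 2.12 RPKM in the Col-0 seedling, 63.0 in the Can-0 seedling, 145 in the Col-0 bud and 33.2 in the Can-0 bud. Can-0 was thus the higher accession in seedling and the lower in bud. The differences were 4.36 in seedling and -2.10 in bud, and the interaction was -6.45 (95% interval for counting error only, -6.72 to -6.19). In root the values were 42.9 RPKM in Col-0 and 11.0 in Can-0, a difference of -1.87 on the side of the bud. FKF1 (AT1G68050), a blue-light receptor that promotes flowering in long days, stood at 11.3 and 82.3 RPKM in Col-0 and Can-0 seedling and at 56.5 and 30.4 in bud. It too was higher in the Can-0 seedling and lower in the Can-0 bud, with an interaction of -3.63 (counting interval -3.78 to -3.48). The 300 bases before the annotated start of FKF1 hold 3 matches to a short form of the evening element. These bases are shown with the matches, AAATATCT or its reverse complement, in capitals. They are from RefSeq's TAIR10.1, at chr1:25508339-25508638 on the plus strand, written 5′ to 3′ toward the start.
FKF1: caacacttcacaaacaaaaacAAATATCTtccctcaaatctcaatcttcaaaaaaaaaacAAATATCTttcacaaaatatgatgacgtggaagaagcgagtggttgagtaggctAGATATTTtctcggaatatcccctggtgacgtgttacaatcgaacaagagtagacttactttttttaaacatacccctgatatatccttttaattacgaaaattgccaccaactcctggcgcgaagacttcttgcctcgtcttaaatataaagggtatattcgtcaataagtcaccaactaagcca
The matches began 279, 240 and 186 bases before the start. Longer forms of the evening element were not searched.

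Of the 12 genes kept on the dusk list, clock genes most of which peak near dusk, 10 had interactions below 0. Over all genes kept, 6874 of 12697 did. Of the 12 dusk genes, 6 passed -2 and none passed 2, against 0.52% and 0.299% of all genes kept. The median was -1.71, against -0.03 over all genes kept. The median accession difference of the dusk genes was 1.18 in seedling and -0.45 in bud, and 11 of the 12 were above 0 in seedling against 3 in bud. Over all 12697 genes kept, 7122 were above 0 in seedling and 6761 in bud. GRP7 (AT2G21660), an RNA-binding protein driven by the clock, stood at 924 and 3654 RPKM in Col-0 and Can-0 seedling and 3541 and 1476 in bud, an interaction of -3.24. The Col-0 bud and the Can-0 seedling were the high libraries. ELF4 (AT2G40080) of the evening complex stood at 7.35 and 99.2 RPKM in seedling, and at 101 and 192 in bud (-2.66), higher in Can-0 in both organs but far more so in seedling. Its partner LUX (AT3G46640) stood at 19.7 and 51.1 RPKM in seedling, and at 57.9 and 35.5 in bud (-2.02). The pseudo-response regulators PRR3 (AT5G60100) and TOC1 (AT5G61380), repressors within the clock, gave -2.99 and -2.21. PRR3 stood at 5.65 and 32.9 RPKM in seedling, and at 17.7 and 10.9 in bud. TOC1 stood at 13.5 and 45.8 RPKM in seedling, and at 49.3 and 34.2 in bud. In both genes the Can-0 seedling was above, and the Can-0 bud below, its Col-0 counterpart. Below the threshold were GRP8 at -1.40, PRR5 at -1.29, GI at -0.97 and ELF3 at -0.63. CHE lay at 0.05 and the F-box protein ZTL, not itself known to peak near dusk, at 0.15. Adding 5 RPKM in place of 1 left 4 of the 6 past -2, with TOC1 at -1.93 and LUX at -1.82.

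Dawn genes went the other way. Of 11 kept, 3 passed 2 and none passed -2, against 0.299% and 0.52% of all genes kept, and the median was 0.89. All 11 were lower in the Can-0 than in the Col-0 seedling (median -1.03), while in bud 6 were above 0 and 5 below (median 0.12). Of all 12697 genes kept, 5575 were below 0 in seedling and 6761 above 0 in bud. PRR9 (AT2G46790), a pseudo-response regulator of the early day, stood at 11.2 and 1.98 RPKM in Col-0 and Can-0 seedling and 6.81 and 12.5 in bud. The accession order was reversed between the organs, with an interaction of 2.82 (counting interval 2.53 to 3.11). CCA1 (AT2G46830), the MYB factor that represses evening genes, stood at 16.7 and 4.62 RPKM in seedling, and at 12.2 and 25.6 in bud, an interaction of 2.67 with the same reversal. LNK2 (AT3G54500), a transcriptional coactivator in the clock, stood at 62.0 and 25.2 RPKM in seedling, and at 33.2 and 63.1 in bud (2.17), again in reversed order. The MYB-like activator RVE8 lay below the threshold at 1.83 and its relative RVE4 at 0.88. LHY, the listed dawn gene under the filter of 5 RPKM, gave 1.94. The exception in sign was RVE2 at -0.86, which was lower in Can-0 in both organs and more so in bud. With 5 RPKM added, 1 of the 3 stayed past 2, CCA1 at 2.00, while PRR9 stood at 1.78 and LNK2 at 1.98. The 300 bases before PRR9 (TAIR10.1, chr2:19232307-19232606, plus strand) are shown because they hold 2 G-boxes, CACGTG, in capitals, 244 and 172 bases before the start, as a dawn gene to set beside FKF1.
PRR9: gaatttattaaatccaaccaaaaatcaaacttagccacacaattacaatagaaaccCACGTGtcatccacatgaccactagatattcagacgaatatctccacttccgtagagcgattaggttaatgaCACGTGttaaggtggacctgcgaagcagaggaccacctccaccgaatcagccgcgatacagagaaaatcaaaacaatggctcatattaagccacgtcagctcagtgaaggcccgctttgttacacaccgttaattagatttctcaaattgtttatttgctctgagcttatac
Among the clock genes kept, the short evening element was found before 7 of 12 dusk genes and 0 of 11 dawn genes. The G-box was found before 1 and 5. Of 12601 genes kept that had a sequence, 6.21% held the short evening element and 8.00% the G-box.

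**Figure D2:**
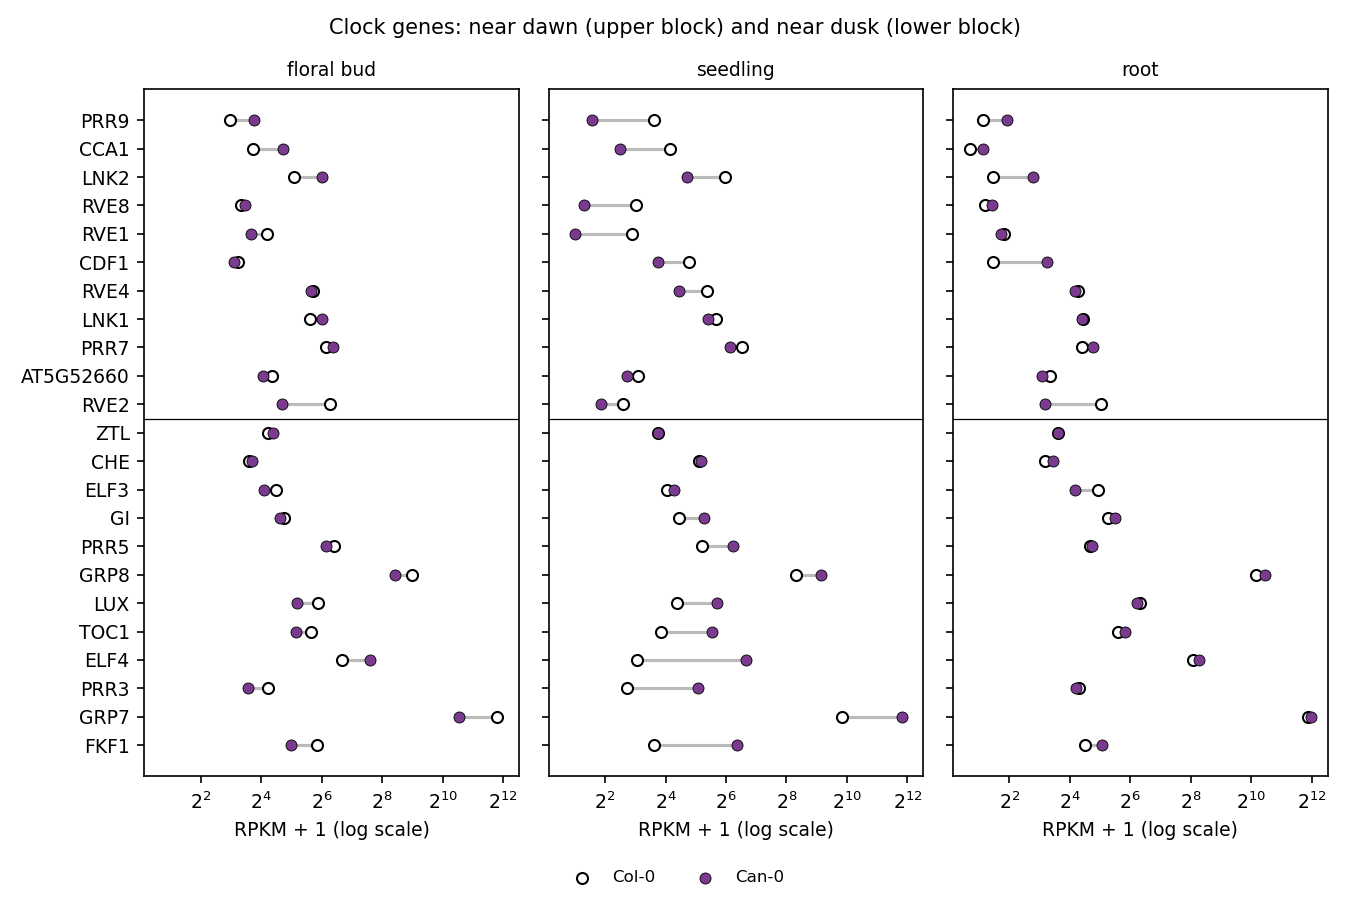
RPKM + 1 on a log scale for the 11 dawn genes (upper block) and 12 dusk genes (lower block) kept, in floral bud, seedling and root, with Col-0 as open and Can-0 as filled points joined by a line. In seedling every dawn gene is lower in Can-0, and 11 of 12 dusk genes are higher.

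A pair of gene families around the clock was picked out after the values had been seen. Of the 4 LNK genes, 3 passed 2, against 0.299% of all genes kept. They were LNK2, AT3G12320 (LNK3) at 3.04 and AT5G06980 (LNK4) at 2.15, while LNK1 stood at 0.68. AT3G12320 stood at 23.7 and 3.58 RPKM in Col-0 and Can-0 seedling and at 19.0 and 29.5 in bud. The B-box zinc finger family, to which the flowering regulator CONSTANS belongs, split in sign. Of 20 members kept, 4 passed 2 and 2 passed -2, against 0.299% and 0.52% of all genes kept. BBX16 (AT1G73870) stood at 25.5 and 8.43 RPKM in Col-0 and Can-0 seedling and 1.24 and 9.33 in bud, an interaction of 3.70 with the order of accessions reversed. COL2 at 2.47, BBX18 at 2.34 and BBX29 at 2.03 were lower in the Can-0 seedling and differed by under 1 in bud. BBX8 (AT5G48250) at -2.70 and COL9 (AT3G07650), which delays flowering, at -2.03 were instead higher in the Can-0 seedling. In the family as a whole 18 of 20 members differed by under 1 in bud, and 10 of 20 by at least 1 in seedling, against 95.7% and 6.6% of all genes kept. With 5 RPKM added, BBX16 stood at 2.38, COL2 at 1.63, BBX18 at 1.44 and BBX29 at 1.18.

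Among cold and osmotic response genes all 10 kept had negative interactions, 6 of them past -2, with a median of -2.51. Over all 12697 genes kept, 6874 were negative and 0.52% passed -2. All 10 cold genes were higher in Can-0 in seedling (median 0.99) and lower in Can-0 in bud (median -0.79). Of all genes kept, 7122 were higher in Can-0 in seedling and 5936 lower in bud. RD29A (AT5G52310), a classic reporter of cold and drought, stood at 22.3 and 61.9 RPKM in Col-0 and Can-0 seedling and 254 and 57.2 in bud. The Col-0 bud was the highest of the 4 libraries and the Col-0 seedling the lowest, and the interaction was -3.56 (counting interval -3.66 to -3.46). Its 300 bases before the start (TAIR10.1, chr5:21240417-21240716, plus strand) are shown for their 3 dehydration-responsive cores, CCGAC, in capitals, 140, 90 and 33 bases before the start.
RD29A: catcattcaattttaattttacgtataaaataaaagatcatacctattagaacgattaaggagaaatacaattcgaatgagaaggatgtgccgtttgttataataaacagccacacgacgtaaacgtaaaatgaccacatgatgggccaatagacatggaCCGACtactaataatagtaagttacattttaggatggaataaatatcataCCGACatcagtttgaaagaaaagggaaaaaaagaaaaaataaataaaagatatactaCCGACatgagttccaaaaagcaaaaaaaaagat
KIN1 (AT5G15960), a small cold-induced protein, stood at 1.05 and 26.1 RPKM in seedling, and at 492 and 431 in bud. The buds differed by -0.19, and its interaction of -3.92 came mostly from the low Col-0 seedling. COR15A (AT2G42540) and COR15B (AT2G42530), neighbouring genes whose products protect chloroplast membranes in freezing, gave -3.07 and -2.89. COR15A stood at 28.6 and 85.8 RPKM in seedling, and at 1082 and 377 in bud, so that both buds were above both seedlings. COR15B was alike, at 52.4 and 98.6 RPKM in seedling, and at 933 and 233 in bud. The dehydrin LTI30 stood at 1.99 and 5.31 RPKM in seedling, and at 14.7 and 2.67 in bud (-3.17). COR413IM1, of the chloroplast inner membrane, stood at 4.48 and 15.3 in seedling and 23.8 and 15.7 in bud (-2.14). Each had the Can-0 seedling above and the Can-0 bud below Col-0. Short of the threshold were COR413-PM1 at -1.52, COR6.6, closely related to KIN1, at -1.51, and the dehydrins COR47 at -0.98 and ERD10 at -0.75. With 5 RPKM added, 4 members stayed past -2, KIN1 at -2.55 among them, and LTI30 stood at -1.92. With a filter of 1 RPKM the list held 14 genes, and its median was -1.52, with 1 gene past 2. The 3 CBF genes, which encode activators of the cold response, were under the filter of 5 RPKM and had the other sign, CBF2 at 2.79, CBF1 at 0.64 and CBF3 at 0.24. All 3 were lower in the Can-0 seedling. COR27, not on the list, and DREB2C (AT2G40340, -3.17, or -1.66 with 5 RPKM added), a factor of the family that binds the dehydration-responsive core, showed the same pattern.

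**Figure D3:**
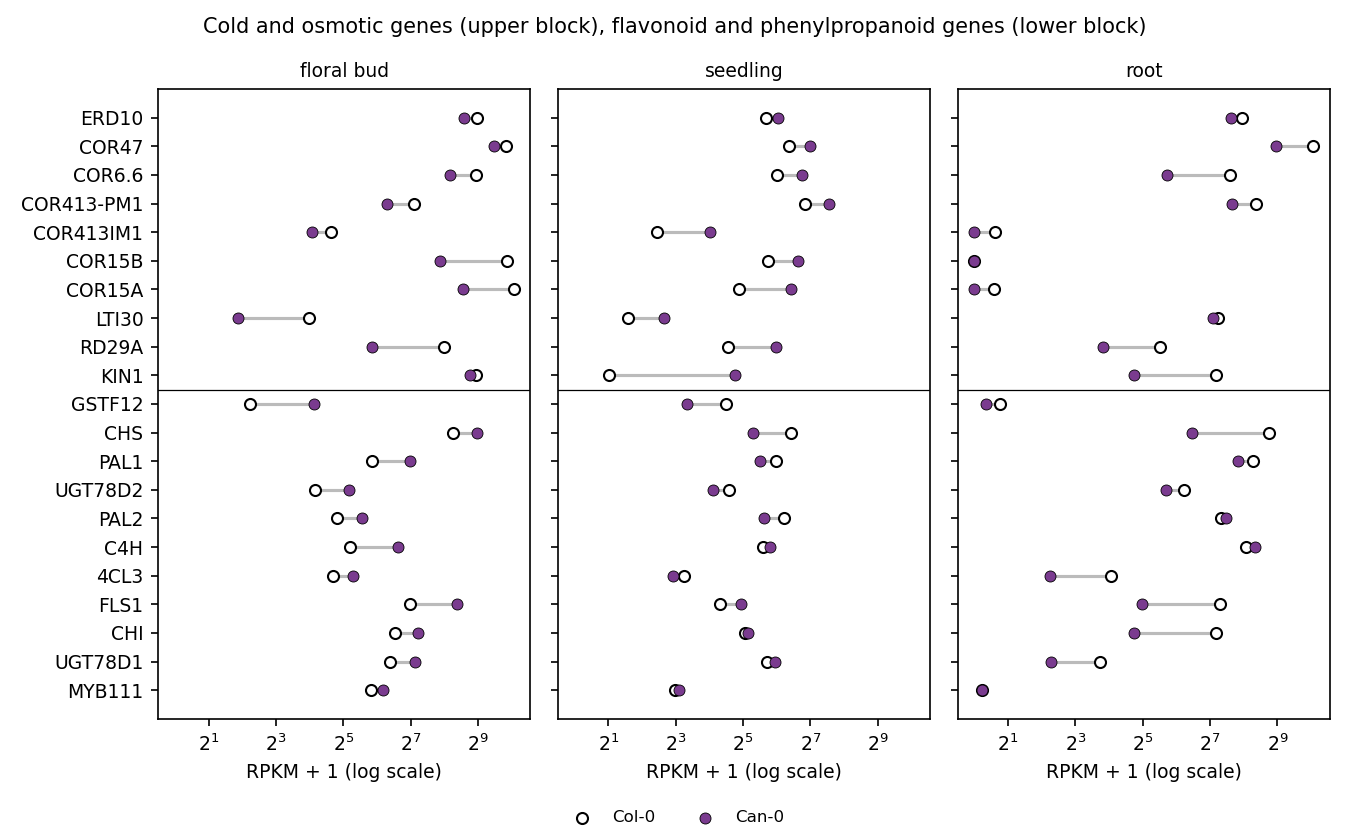
RPKM + 1 on a log scale for 10 cold and osmotic genes (upper block) and 11 flavonoid and phenylpropanoid genes (lower block), with Col-0 open and Can-0 filled. All 10 cold genes are lower in Can-0 in bud and higher in seedling, and all 11 flavonoid genes are higher in Can-0 in bud.

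Roots were not used by the rule and give a further accession difference for the same genes. Of the 47 negative genes with at least 5 RPKM in a root library, the root difference lay nearer to the bud than to the seedling difference in 33, and in 36 it was under 1 in size. Of 17 such positive genes it lay nearer to bud in 10. Over all 11346 genes of that kind the root was nearer to bud in 53.7% and under 1 in 96.3%. In most of the negative and positive genes the seedling difference was larger in size than the bud difference. A root difference near 0 then lies nearer to bud because of how the genes were chosen. The counts of nearness therefore cannot decide whether root resembled bud. The median root difference was -0.0032 for the negative and -0.37 for the positive genes. Dusk genes differed little in root, with a median of 0.14 and a range of -0.76 to 0.56. Dawn genes had a median of 0.24 and a wider range, from -1.84 for RVE2 to 1.80 for CDF1, with LNK2 at 1.32. Cold genes had a median of -0.66 and a range of -2.43 to 0, but COR15A, COR15B and COR413IM1 were under 1 RPKM in both root libraries. KIN1 stood at 145 and 26.0 RPKM in Col-0 and Can-0 root and RD29A at 44.5 and 13.0. Both were lower in Can-0 in bud too, KIN1 by only -0.19. LTI30 and ERD10 differed by only -0.16 and -0.34 in root. Roots grew on plates and in another run, whose part in this was not tested.

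**Figure D4:**
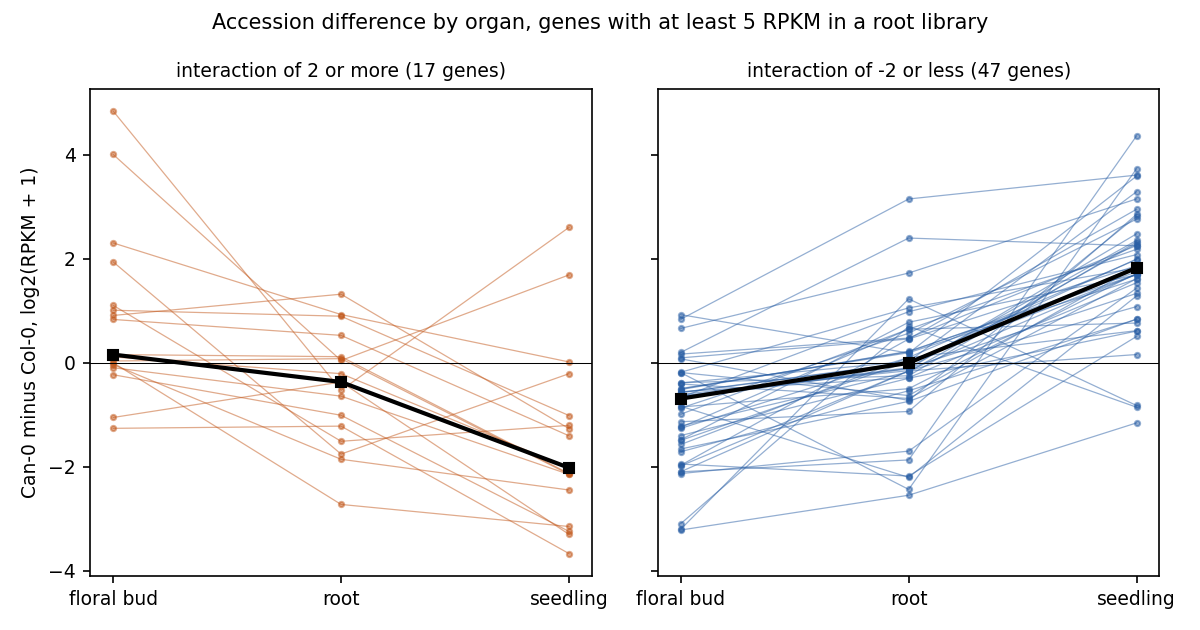
Can-0 minus Col-0 difference on log2(RPKM + 1) in floral bud, root and seedling for the interaction genes with at least 5 RPKM in a root library, 17 positive (left) and 47 negative (right). Thin lines are genes and black squares the medians; the negative genes have a root median of -0.0032.

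Flavonoid and phenylpropanoid genes, which make flavonols and anthocyanin pigments, leaned positive. All 11 kept were above 0, against 5823 of all 12697 genes kept, and the median was 1.2. An interaction of 1 or more was reached by 6, against 2.28% of all genes kept, and of 2 or more by 1, against 0.299%. That gene, GSTF12 (AT5G17220), which carries anthocyanin to the vacuole, stood at 21.6 and 9.09 RPKM in Col-0 and Can-0 seedling and 3.66 and 16.5 in bud (3.07). Can-0 was lower in seedling and higher in bud. CHS, the entry enzyme of flavonoid synthesis, gave 1.82, with 85.2 and 38.8 RPKM in seedling and with 305 and 498 in bud. PAL1, the entry enzyme of phenylpropanoid synthesis, gave 1.61 and the glucosyltransferase UGT78D2 1.48. In bud all 11 were higher in Can-0 (median 0.75), while in seedling 5 were above 0 and 6 below. Of all 12697 genes kept, 6761 were above 0 in bud and 7122 in seedling.

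Genes that respond within minutes to touch and wounding had a median of 0.86 over 12 kept. Of these, 2 passed 2 and none passed -2, against 0.299% and 0.52% of all genes kept. The zinc finger gene SZF1 (AT3G55980) stood at 56.5 and 13.2 RPKM in Col-0 and Can-0 seedling and 23.9 and 25.9 in bud (2.13). DIC2 (AT4G24570), a mitochondrial dicarboxylate carrier, stood at 63.9 and 18.3 and at 33.1 and 41.4 (2.06). Both differed between the seedlings and hardly between the buds. CAF1a, which shortens mRNA tails, lay below the threshold at 1.88 and the cell wall enzyme gene TCH4 at 1.45. With 5 RPKM added, SZF1 and DIC2 stood at 1.85 and 1.85.

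Defence genes were found with interactions of either sign. ACD6 (AT4G14400), a membrane ankyrin protein that raises salicylic acid defence, was listed at 0 in the Col-0 bud and stood at 9.87 RPKM in the Can-0 bud, against 54.1 and 42.7 in Col-0 and Can-0 seedling. Its interaction of 3.78, the highest of all genes kept, rests on a library at 0 and was 1.88 with 5 RPKM added. AT5G03350, a legume lectin family protein, stood at 1.51 and 24.9 RPKM in bud and 63.8 and 58.1 in seedling (3.50, or 2.32 with 5 RPKM added). PCC1 (AT3G22231), named for its control by pathogens and the clock, stood at 0.884 and 18.2 RPKM in bud and 203 and 351 in seedling (2.56, or 1.21 with 5 RPKM added). These 3 genes differed by under 1 between the seedlings and stood at 1.51 RPKM or less in the Col-0 bud. BGLU8 (AT3G62750), a beta-glucosidase, stood at 12.4 and 79.1 RPKM in bud and 52.3 and 27.1 in seedling (3.50), its order reversed. PR5 (AT1G75040), a pathogenesis-related protein, went the other way at -3.19, with 15.2 and 93.0 RPKM in seedling and with 25.4 and 15.8 in bud. Of 13 salicylic acid defence genes kept, 2 passed 2 (ACD6 and PCC1) and 1 passed -2, against 0.299% and 0.52% of all genes kept. The median was -0.16. An interaction of -1 or less was seen in 6, against 2.69% of all genes kept, and of 1 or more in 2. The 6 were PR5, NIMIN1 at -1.89, EDS1 at -1.22, NIMIN-2 at -1.09, GRX480 at -1.07 and EDS5 at -1.02, all higher in the Can-0 seedling. The median of 14 NLR immune receptors was 0.15, none past 2, and AT1G58602 was highest at 1.73.

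Jasmonate genes, of the wound hormone pathway, leaned negative, with 15 of 16 below 0, against 6874 of all 12697 genes kept. Their median was -0.59. An interaction of -1 or less was seen in 4, against 2.69% of all genes kept, and of -2 or less in 1, against 0.52%. That was VSP1 (AT5G24780), a storage protein, at 9.77 and 74.6 RPKM in Col-0 and Can-0 seedling and 5708 and 6005 in bud (-2.74). Its level in bud was high in both accessions and differed by 0.07. AOC3 at -1.83 and the lipoxygenase LOX2 at -1.27 were likewise higher in the Can-0 seedling, by 2.00 and 2.03, and differed by 0.16 and 0.76 between buds. Listed genes under the filter of 5 RPKM in bud included TAT3 at -3.35, AOC1 at -2.16 and AOC2 at -2.09. Of those under the filter, JAZ8 at 0.31 and JMT at 0.06 had the other sign. ARGAH2, an arginase, showed the shared kind of difference, -6.44 in seedling and -6.98 in bud, with an interaction of -0.54.

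Glucosinolates are sulfur compounds that myrosinase enzymes turn into toxins in damaged tissue. MBP1 (AT1G52040), a myrosinase-binding protein, stood at 5.73 and 145 RPKM in Col-0 and Can-0 seedling and 222 and 286 in bud. Both buds were high, and only the Col-0 seedling was low (-4.08, counting interval -4.25 to -3.91). MAM3 (AT5G23020), a chain-elongating synthase, stood at 15.4 and 73.2 RPKM in seedling, and at 7.32 and 3.19 in bud (-3.17). AOP3 (AT4G03050), a dioxygenase that modifies the side chain, stood at 1.43 and 90.3 in seedling and 0.435 and 10.5 in bud (-2.23), higher in Can-0 in both organs. Its Col-0 bud value lies under the added 1, which understates the bud difference and overstates the size of the interaction. IGMT5 (AT1G76790), a methyltransferase of indole glucosinolates, stood at 21.7 and 81.4 RPKM in seedling, and at 33.2 and 7.73 in bud (-3.83), its order reversed. Over 20 aliphatic genes the median was 0.02, with 2 past -2, and over 8 breakdown genes it was -0.29, with 1 past -2. Of all genes kept, 0.52% passed -2. All 7 genes kept of the indole glucosinolate list, which does not hold IGMT5, were below 0 and higher in the Can-0 seedling. Their median was -0.70, with 1 at -1 or less and none past -2. Of all 12697 genes kept, 6874 were below 0, 7122 were higher in the Can-0 seedling and 2.69% reached -1 or less. The breakdown genes ESP and TGG2 differed between accessions by 7.40 and -7.28 in bud and 7.15 and -6.83 in seedling, the highest and the lowest bud differences of all genes kept, and their interactions were 0.26 and -0.45.

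SOC1 (AT2G45660), a MADS-box integrator that promotes flowering and is repressed by FLC, stood at 25.1 RPKM in the Col-0 seedling and 1.95 in the Can-0 seedling. In bud the values were 50.6 and 50.6, a difference of -0.00, and in root 11.9 and 0.959. The interaction was 3.15 (counting interval 2.87 to 3.42), all of it from the seedling. FLC, in contrast, was higher in Can-0 in every organ, at 4.85 and 104 RPKM in seedling, 0.123 and 27.8 in bud and 0.124 and 106 in root (0.52). The Col-0 bud value of FLC, about 3 reads, lies far under the added 1, which understates its bud difference and its interaction. The 8 flowering time genes kept besides SOC1 lay between -0.60 for MAF3 and 0.57 for TEM1.

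NIA1 (AT1G77760), a nitrate reductase, stood at 30.5 and 6.12 RPKM in Col-0 and Can-0 seedling and 32.5 and 30.3 in bud (2.05). BT5 (AT4G37610) stood at 61.5 and 3.92 and at 47.7 and 19.3 (2.41). Both were low in the Can-0 seedling. The sulfur deficiency gene ATSDI1 (AT5G48850) stood at 10.6 and 0.363 RPKM in bud and 15.6 and 8.19 in seedling (-2.24, or -0.90 with 5 RPKM added), the difference being one of the bud. So was that of RbcX1 (AT4G04330), a chaperone for the assembly of Rubisco, at 19.2 and 2.3 in bud and 32.5 and 49.8 in seedling (-3.21). AAS (AT2G20340), an aromatic aldehyde synthase, stood at 17.0 and 288 RPKM in bud and 12.1 and 41.0 in seedling (2.31), and the carboxypeptidase-like SCPL12 (AT2G22920) at 1.15 and 60.4 and at 1.14 and 11.9 (2.23). Both were higher in Can-0 in each organ, and more so in bud. AT7SL-1, a 7SL RNA of the signal recognition particle, gave -2.06; it was the only one of the 104 with a near-identical copy, so how its reads were divided is uncertain. Carbon starvation genes had a median of 0.43 over 6 kept and none past 2, with the trehalose-phosphate synthase TPS8 at 1.79 and SEN1 at -1.78. Light signalling genes had a median of 0.70 over 7, again none past 2. The ferritins FER1, FER3 and FER4, which store iron, stood at -1.36, -1.19 and -1.27 within an iron list of 10 genes with median -0.12. That list ran from NAS3 at -1.54 to a highest value of 1.04, with 5 genes above 0 and 5 below.

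Other members were on none of the pathway lists. AT4G33980, with no symbol in the annotation used, stood at 1.26 and 21.0 RPKM in Col-0 and Can-0 seedling and at 33.7 and 11.3 in bud (-4.78). AT1G07050, a CCT motif protein, stood at 29.5 and 166 RPKM in seedling, and at 123 and 39.4 in bud (-4.07). AT5G23240, a DNAJ domain protein, stood at 12.6 and 97.0 RPKM in seedling, and at 61.2 and 27.3 in bud (-3.98). In these 3 genes Can-0 was above Col-0 in seedling and below it in bud, as for COR27. AT1G17665, a CA-responsive protein by its annotation, was alike, at 3.55 and 21.2 RPKM in seedling, with 11.0 and 4.16 in bud (-3.50). AT4G18422 stood at 0.1 and 26.4 RPKM in seedling, against 8.54 and 11.6 in bud (-4.24, or -2.33 with 5 RPKM added). AT4G19430 was listed at 0 in the Col-0 seedling and stood at 9.60 RPKM in the Can-0 seedling, against 82.1 and 86.9 in bud (-3.32, or -1.47 with 5 RPKM added). AT3G28270 stood at 15.3 and 263 RPKM in seedling, against 26.9 and 40.1 in bud (-3.46). The last 3 were lowest in the Col-0 seedling and differed by under 1 between buds. The metallothionein MT2A, a metal-binding protein, was among the most abundant of the 104, at 202 and 657 RPKM in seedling, against 1667 and 1092 in bud (-2.31). The hexose transporter gene MSS1 stood at 7.38 and 38.9 RPKM in seedling, against 28.7 and 32.3 in bud (-2.09), and the calcium pump gene ACA8 at 10.4 and 32.0, against 31.7 and 21.2 (-2.09). In all of these the Can-0 seedling was the higher.

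Among positive members AT2G20670 stood at 344 RPKM in the Col-0 seedling and 35.5 in the Can-0 seedling, with 43.2 and 36.6 in bud (3.01). AT3G22750, a protein kinase, stood at 12.3 and 1.45 RPKM in seedling, with 60.7 and 59.2 in bud (2.41). Its root values of 16.7 and 3.88 RPKM were also lower in Can-0. AT2G15020 stood at 12.2 and 3.78 RPKM in seedling, with 2.81 and 6.43 in bud (2.43). AT4G27657 stood at 5.6 and 2.04 RPKM in seedling, with 2.5 and 8.79 in bud (2.61), its order reversed. Of genes lower in Can-0 in both organs, AT2G27402 had seedling values of 26.2 and 0.109 RPKM and bud values of 5.28 and 0.0539 (2.04). Its Can-0 values, about 3 reads in seedling and 2 in bud, lie far under the added 1. The interaction of AT2G27402 thus mostly follows the Col-0 level in each organ, and was 1.59 with 5 RPKM added. AT5G19120 had seedling values of 50.8 and 4.26 RPKM and bud values of 63.2 and 29.9 (2.25). Seen mainly in bud, with a negative interaction, was AT2G33830, a dormancy and auxin associated protein, at 191 and 19.9 RPKM in bud and 29.8 and 16.4 in seedling (-2.38). In root it was the higher in Can-0, at 105 and 247 RPKM. AT5G48540, a receptor-like kinase relative, stood at 1.83 and 12.9 RPKM in bud and 7.20 and 7.28 in seedling (2.29). With 5 RPKM added, AT4G27657 stood at 1.47, AT2G15020 at 1.52, AT3G22750 at 1.39 and AT5G48540 at 1.38. Of the members not named here, the negative ones lay between -3.12 and -2.0 and the positive ones between 2.02 and 2.36.

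Genes of basic organ function showed little interaction, as did most genes kept. Among all genes kept 2.28% reached 1 or more and 2.69% reached -1 or less, so a short list can hold none without standing apart. None of 34 photosystem and antenna genes (median 0.00), 18 carbon fixation genes (median 0.07) or 17 cell division genes (median 0.14) reached 1 in size, and nor did any of 6 cuticle genes (median 0.01) or 3 pollen genes (median -0.16). Heat shock genes were mostly below the level kept, with 2 of 15 at 0.34 and 1.49. Only 1 gene was kept of each of the tapetum (0.43), floral organ (-0.58) and floral volatile (-0.13) lists, and none of the root markers. The filter asked for 5 RPKM in a seedling library, so genes seen only in bud were left out. The pollen genes kept, ACT3, ACT11 and TUB9, stood at 24.2, 25.5 and 46.3 RPKM in the Col-0 seedling and do not stand for pollen.

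**Figure D5:**
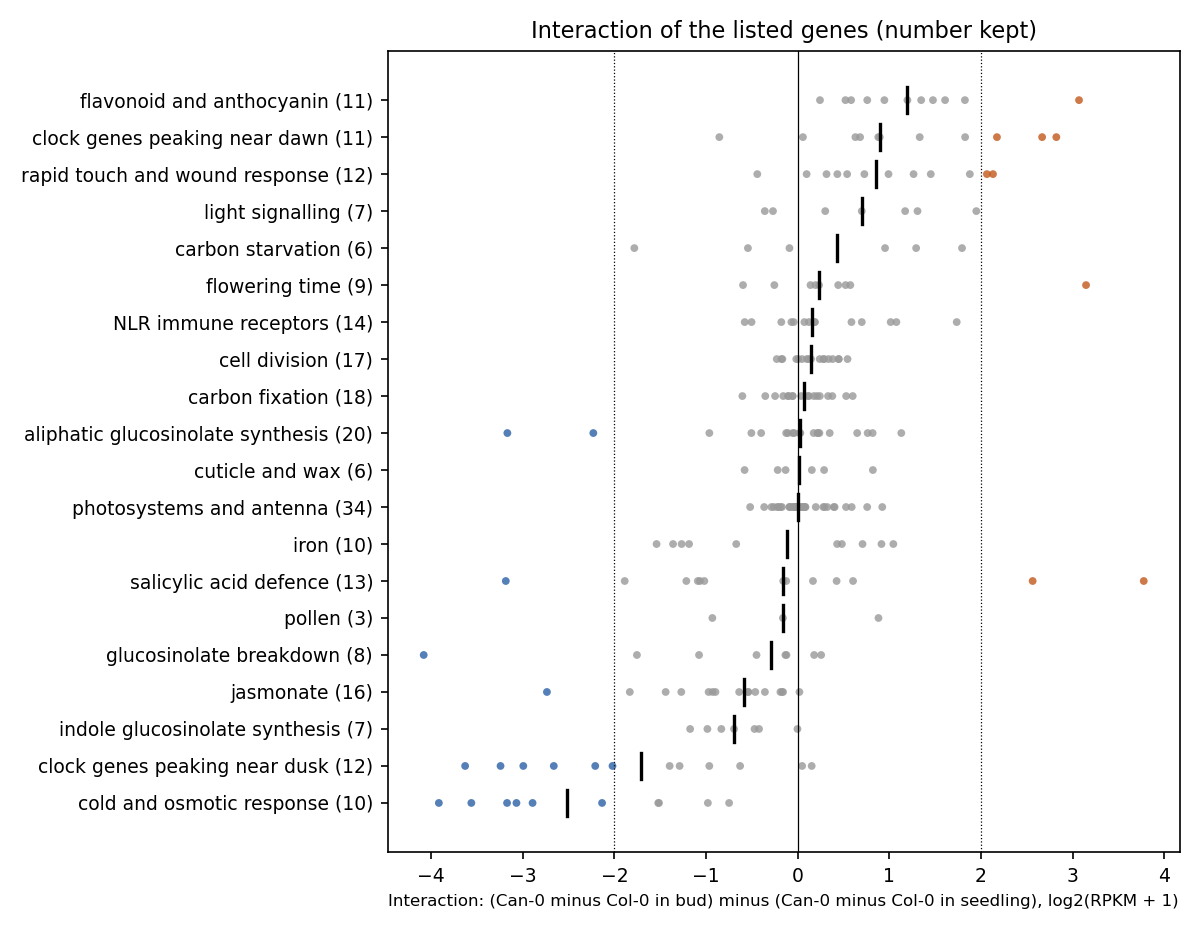
Interaction on log2(RPKM + 1) of each listed gene kept, for lists with at least 3 genes kept (number in brackets), with the list's median as a black bar and dotted lines at 2 and -2. Cold and dusk genes lie lowest, with medians of -2.51 and -1.71, and flavonoid and dawn genes highest, with 1.2 and 0.89.

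The promoter motifs shown above were counted before all interaction genes, in 300 bases and on both strands. Shares are set against 12601 genes kept that had a sequence. The short evening element was found before 19 of 66 negative genes (28.8%) and 5 of 38 positive genes (13.2%), against 6.21%. The dehydration-responsive core was found before 16 negative (24.2%) and 4 positive genes (10.5%), against 15.6%. The G-box was found before 10 (15.2%) and 6 (15.8%), against 8.00%. In the cold list 6 of 10 held the dehydration-responsive core. A match is a run of letters and was not tested as a binding site.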

How the data were processed

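Polyadenylated RNA was sequenced from 6 libraries, 1 per accession and organ, prepared from fragmented mRNA with an adapted small RNA protocol, per the labels. The authors deposited RPKM values for 28775 features, scaled to exon model length and mapped reads per the file headers. The submitters' processing notes list the builds TAIR9 and TAIR10 but not which made these values. Not given in the sources used here were the aligner, the counting rule, the use of strand and the reference for Can-0 reads.

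From the 4 bud and seedling libraries the interaction was computed on log2(RPKM + 1) with Python 3.11.15, pandas 2.3.3 and numpy 2.4.6 (figures with matplotlib 3.10.9), over genes with at least 5 RPKM in a bud and a seedling library. The added 1 understates differences of low genes. A difference in alignment that scales Can-0 values alike in both organs cancels, apart from that 1. With 1 library per group no test was possible, and genes were counted at an interaction of 2 or more in size. The script was tested on simulated data with less than 1 added, scoring genes at 5 RPKM or more in both organs. That test does not cover the added 1, lower genes or the classes. Mapped reads were estimated from the RPKM step between small values, of which 44.2% to 56.3% per library lay within 0.1 of a whole read. The 95% intervals and the floor of 3 reads (0.131 to 0.138 RPKM in a gene of 1 kb) cover counting error only.

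RefSeq's annotation of TAIR10.1, not known to be the authors' build, gave symbols for 28009 matched identifiers (766 did not match), overlaps, and the 300 bases before each start. Near-identical copies were transcripts with 95% identity over 50% of their length by BLAST+ 2.17.0. The 104 genes, the 25 lists of 445 genes and the naming rule were chosen with earlier results of these data known. The rule named the 15 highest and 15 lowest genes and the 6 largest of each class. It also named up to 4 members of each list and every clock gene past 2. Not all genes so named are given in the text, and only some of the remaining members of lists were added. Genes outside the rule that the text names, such as the LNK and B-box families, ESP, ARGAH2 and further members of the 104, were chosen after their values were seen. Alternatives changed the pseudocount, filter, scaling, minimum interaction, near-identical copies and the organ compared, and 2 were added after seeing the data.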

Additional observations from a re-analysis of the deposited data

Results flagged for a closer look

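In 19 genes the accessions differed by at least 1 in both organs with unlike signs, and these differences were not tested. Can-0 was higher in bud and lower in seedling in BBX16 (interaction 3.70), GSTF12 (3.07), CCA1 (2.67), AT4G27657 (2.61), AT5G48490 (2.36), AT5G62210 (2.31) and AT4G12980 (2.02). It was lower in bud and higher in seedling in COR27 (-6.45), AT4G33980 (-4.78), AT1G07050 (-4.07), AT5G23240 (-3.98), IGMT5 (-3.83), RD29A (-3.56), AT1G17665 (-3.50), GRP7 (-3.24), LTI30 (-3.17), DREB2C (-3.17), COR15A (-3.07) and AT5G26220 (-2.82). Each organ and accession is 1 library.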

How the results depend on the processing

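The counts of 38 positive and 66 negative genes depended on the pseudocount, the filter and the minimum. They were 9 and 34 with 5 RPKM added in place of 1, 70 and 100 with a filter of 1 RPKM, 16 and 36 with a filter of 20 RPKM, and 134 and 157 with no filter. With a minimum interaction of 1 they were 289 and 341, and with 3 they were 8 and 22. With root in place of seedling they were 61 and 25, of which 5 and 6 were among the 38 and 66. Under an alternative chosen after seeing the data, 22 positive and 46 negative genes had a 95% counting interval wholly past 2. The other alternatives gave 38 to 57 positive and 60 to 92 negative genes, or 32 and 53 where genes with antisense overlaps were left out, also chosen after seeing the data. The pseudocounts, filters, scalings and the removal of near-identical copies were also applied to named genes and list medians. No named gene at 2 or more in size changed sign, and no list median at 1 or more. Smaller values, the dawn median among them, were not checked for sign. Among values of named genes 130 moved by more than counting error, 67 of them with 5 RPKM added, and 822 did not. Among list medians 35 moved by more than the median counting error of their members, 11 of them with no filter, and 178 did not. No paired analysis was possible because each accession and organ has 1 library, all with replicate number 1, and leaving out a library leaves no interaction. Depth limits genes near 0 most, as ACD6 in the Col-0 bud.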
